A study of Mus musculus with 8 samples.

Results

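The genes described here are 38 genes of glycolysis, pyruvate use and the response to low oxygen, chosen by symbol from a fixed list, out of 42775 genes in a table of RNA levels from cultured mouse cochleas. Their expression was compared between cultures given CHIR99021 (10 μM, 6 h), which blocks the kinase GSK3 and thereby activates the canonical Wnt pathway, and control cultures. The tissue was wild-type Swiss Webster, and the labels describe cochleas explanted at E12.5, kept in culture for 24 h before the treatment, and named E14.0 cultures at collection. Each group held 4 libraries of poly(A) RNA, numbered 1 to 4, with 2 labelled female and 2 labelled male. The controls are given as DMSO vehicle in the series design and only as control in the sample labels, and both groups shared the culture. All libraries were made from whole explants, so epithelium, mesenchyme and other cells were measured together, and fewer cells of a type cannot be told apart from less of an RNA per cell.

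Glycolysis breaks glucose down to pyruvate. Glucose enters through transporters, is trapped in the cell by hexokinase, and is committed to the pathway by phosphofructokinase, whose strongest activator is made by the PFKFB enzymes. Pyruvate is then either reduced to lactate by lactate dehydrogenase and exported by monocarboxylate transporters, or passed to the mitochondria, where pyruvate dehydrogenase admits it to the citric acid cycle unless a PDK kinase switches that enzyme off. Many of these steps have several isoforms encoded by separate genes. When oxygen is low, the transcription factor HIF1A escapes the prolyl hydroxylases that mark it for destruction, and raises many glycolytic genes together with genes of vessel growth, mitophagy and collagen maturation.

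The table gives CPM, the usual scaling of a gene's reads to the total assigned in its library. These assigned reads numbered 64905007 to 75434130 in the CHIR99021 libraries and 66483661 to 89269187 in the controls. The first principal component held 48.7% of the variance and separated the treatments, and the second, with 16.8%, placed replicates 1 and 4 of both groups apart from replicates 2 and 3. The targets that show Wnt activation were all higher in CHIR99021, with 6 of 6 passing and Axin2, a feedback inhibitor of the pathway, at 266 ± 20.2 CPM against 87.8 ± 9.99 CPM in control (SD, n = 4 each). Markers of glia (4 of 5 tested), otic epithelium (5 of 12), cartilage (3 of 5), mesenchyme (3 of 7), macrophages (2 of 3), neurons (2 of 7) and endothelium (1 of 6) were lower in CHIR99021, and 2 mesenchyme markers were higher. Of all genes tested 21.4% were lower, so neurons (28.6%) and endothelium (16.7%) lay near that share. None of the 5 tested erythroid markers passed. The summed glia markers ranged over 470 to 503 CPM in CHIR99021 and 653 to 714 CPM in control, and the summed cartilage markers over 3542 to 4032 CPM in CHIR99021 and 4494 to 5828 CPM in control. Otic epithelium markers summed to 3927 to 4244 CPM in CHIR99021 and 4189 to 4362 CPM in control, and mesenchyme markers to 1308 to 1411 CPM in CHIR99021 and 1420 to 1645 CPM in control. The part that these other cell types had in the results below was not tested.

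With CHIR99021 the glycolytic genes changed in both directions. For hexokinase and phosphofructokinase 1 isoform was called higher and another lower, and both calls held under every alternative only for hexokinase. For lactate dehydrogenase the lower call was at the threshold. Hk2, Pfkp, Pfkfb3, Aldoa, Pgam1, Pkm, Ldha, Slc16a1 and Pdha1 were higher in CHIR99021, whereas Hk1, Pfkm, Eno3 and Pdk2 were lower. Of 8 genes commonly read for glycolysis and the hypoxia response, Hk2, Pfkfb3, Ldha and, narrowly, Pgk1 were higher, and Hif1a, Vegfa, Pdk1 and Slc2a1 did not pass. Differences are CHIR99021 minus control on the log2(CPM + 1) scale, tested with limma in the 14264 genes whose mean CPM reached 1, and adjusted over all of them by Benjamini-Hochberg (called below 0.05). Among the 38 genes 36 could be tested, and 12 of these were called higher and 6 lower, beside a background of 12.3% of all genes tested called higher and 21.4% called lower. Either way 50.0% of the tested members were called, against 33.7% of all genes, and their median difference was 0.13 on the log2 scale against -0.05 for all genes. A difference over 0.5 in size was seen for 3 called higher and 2 called lower, where 2.95% of all genes were called higher and 8.91% lower at that size. In 16 of the 36 genes the CHIR99021 libraries did not overlap the controls, which held for 33.3% of all genes.

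With CPM rescaled by trimmed mean of M-values (TMM) factors, the split was 14 higher and 4 lower, and the background moved to 17.1% higher and 16.3% lower. Of all called genes, 36.5% were higher in the main fit and 51.2% after TMM scaling. The split was 14 and 5 in edgeR (background 13.1% higher and 12.7% lower), 15 and 5 in DESeq2 (14.9% and 14.5%), and 13 and 7 with the replicate number as a block (15.4% and 26.1%). Within replicates 1 and 4 alone 9 genes were higher and 4 lower, beside 1157 higher and 2149 lower of all 14289 genes tested there. Within replicates 2 and 3 alone 6 were higher and 3 lower, beside 608 and 1048 of all 14228. Each of these fits had 2 libraries per group. The summed level of the 38 genes ranged over 4245 to 4313 CPM in CHIR99021 and 3582 to 3883 CPM in control, without overlap.

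**Figure D1:**
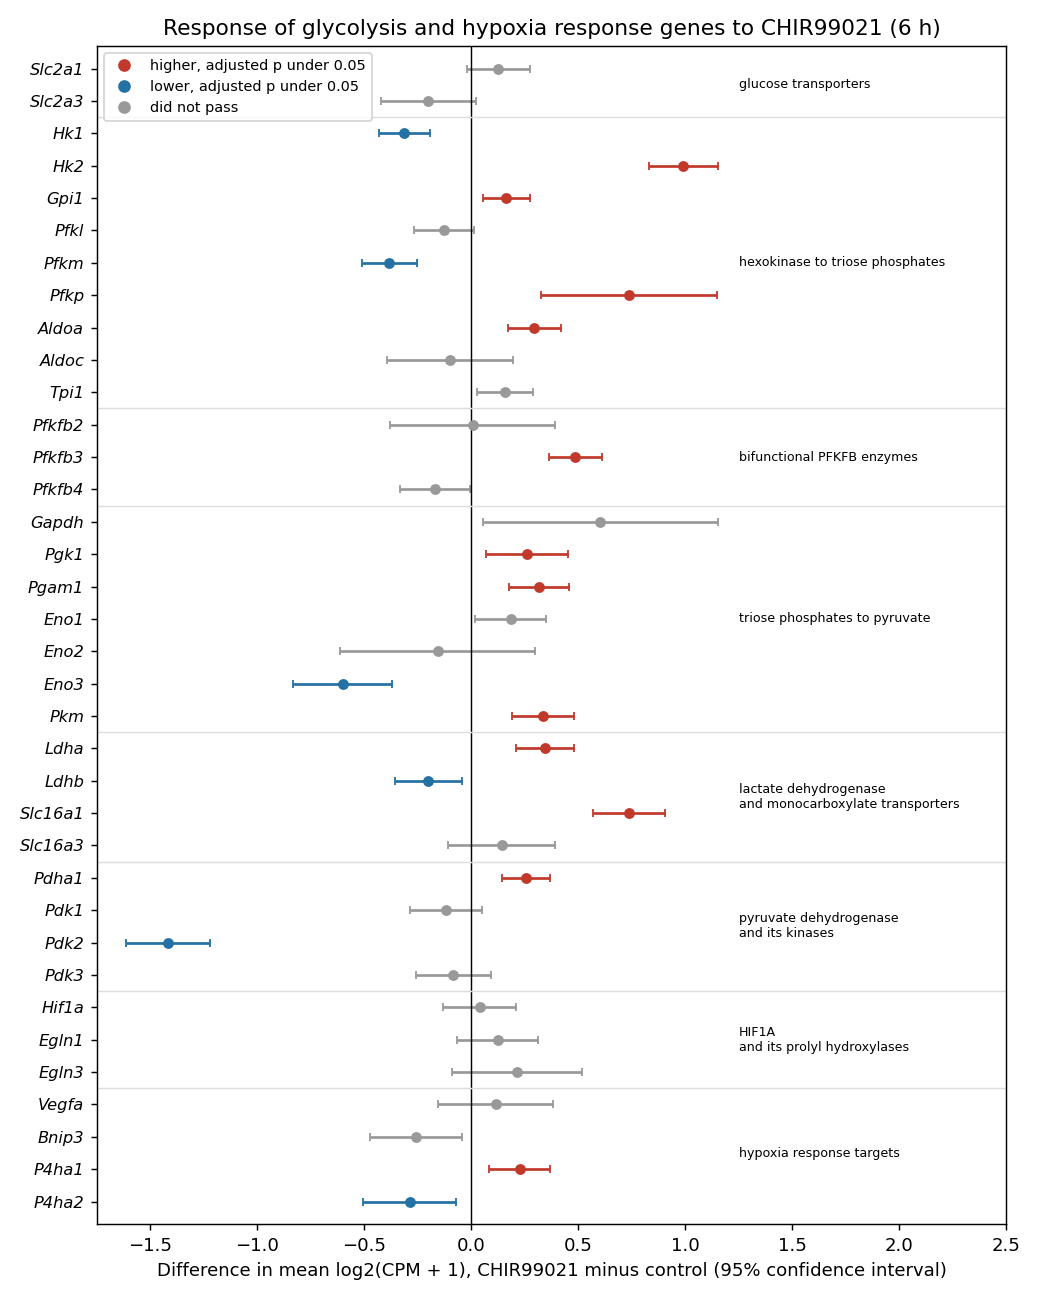
Difference in mean log2(CPM + 1), CHIR99021 minus control, with its 95% confidence interval from limma, for the 36 tested genes grouped by role (n = 4 libraries each). Red points were higher and blue points lower at an adjusted p under 0.05, and grey points did not pass. Hk2 (0.99) and Pdk2 (-1.42) lie at the ends, and the 7 genes of oxygen sensing and the hypoxia response lie between -0.29 and 0.23.

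Promoter sequence was available from RefSeq (GRCm38.p6) for 37 of the 38 genes as the 250 bases before the annotated start. Those of Hk2, Slc16a1, Ldha and Pdk2 are shown because 3 of these genes had the largest differences without overlap between the groups among the 36 tested, and Ldha is the common readout of lactate production. Capitals mark the core of the HIF binding site (ACGTG or GCGTG on either strand) and the E-box bound by MYC-type and other helix-loop-helix factors (CACGTG), which holds ACGTG on both strands, so the motifs overlap.
Hk2 (chr6:82774455-82774704, minus strand): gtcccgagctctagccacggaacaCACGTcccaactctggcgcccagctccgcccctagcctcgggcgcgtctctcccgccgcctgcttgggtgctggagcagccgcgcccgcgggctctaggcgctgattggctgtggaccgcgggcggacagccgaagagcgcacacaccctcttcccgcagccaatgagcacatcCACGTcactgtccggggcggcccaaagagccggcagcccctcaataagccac
Slc16a1 (chr3:104638414-104638663, plus strand): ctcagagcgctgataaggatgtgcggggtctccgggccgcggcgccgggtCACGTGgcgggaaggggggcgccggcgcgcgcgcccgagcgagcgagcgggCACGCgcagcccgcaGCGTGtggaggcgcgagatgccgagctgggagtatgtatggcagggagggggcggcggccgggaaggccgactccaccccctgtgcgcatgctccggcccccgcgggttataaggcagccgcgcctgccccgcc
Ldha (chr7:46845554-46845803, plus strand): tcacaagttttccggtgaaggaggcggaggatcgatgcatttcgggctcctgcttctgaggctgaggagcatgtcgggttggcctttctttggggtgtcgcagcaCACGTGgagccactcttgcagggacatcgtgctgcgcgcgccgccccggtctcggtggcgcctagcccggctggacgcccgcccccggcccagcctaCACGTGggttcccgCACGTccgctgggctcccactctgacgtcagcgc
Pdk2 (chr11:95041372-95041621, minus strand): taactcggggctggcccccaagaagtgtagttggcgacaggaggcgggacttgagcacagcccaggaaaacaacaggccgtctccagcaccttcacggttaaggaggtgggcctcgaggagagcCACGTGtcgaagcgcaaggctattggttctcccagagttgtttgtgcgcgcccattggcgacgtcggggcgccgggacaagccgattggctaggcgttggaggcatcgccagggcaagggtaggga

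The HIF core was found in 30 of the 37 promoters (81.1%), against 55.8% of the same window in the tested genes and 38.6% of all 32851 promoters. Known HIF targets were among the genes listed, so this larger share is no independent result. The HIF core did not follow the direction of change, being present in 9 of 12 genes that were higher, 5 of 6 that were lower and 14 of 17 tested ones that did not pass. The E-box was found in 6 promoters (16.2%, against 8.19% of those of tested genes), namely those of Pfkm, Ldha, Slc16a1, Pdk2, Hif1a and Bnip3. Neither the letters bound by TCF/LEF factors (CTTTGAA or CTTTGAT on either strand), which were found in 5.11% of the promoters of tested genes, nor the FOXO letters (TGTTTAC or TATTTAC, 3.31%) were in any of the 37 windows. Median GC content was 62.4% for these promoters and 60.4% for those of all tested genes. A match is a stretch of letters only, and binding was not measured.

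At the entry of glucose, neither of the listed transporters passed. Slc2a1, which encodes the basal glucose transporter GLUT1 and is a classical hypoxia target, was at 85.7, 83.5, 76.1 and 85.8 CPM in the CHIR99021 libraries and 71.5, 73.4, 73.5 and 84.8 CPM in control. Its CHIR99021 values were above 3 of the 4 controls, with Control replicate 4 at the same height as the treated libraries. The difference was 0.13 ± 0.07 (SE, adjusted p = 0.172 from limma), it was 0.18 (adjusted p = 0.0444) without Control replicate 4, and it passed in DESeq2 (adjusted p = 0.0482). Slc2a3, the high-affinity transporter GLUT3, averaged 9.53 ± 0.695 CPM in CHIR99021 and 11.1 ± 1.30 CPM in control (SD, n = 4 each; -0.20, adjusted p = 0.149). Per kb of exon, Slc2a1 made up 94.7% of the pair in CHIR99021 and 93.3% in control.

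The hexokinases went in opposite directions. Hk2 (chr6:82725025-82774454), the inducible hexokinase, had 93.5, 83.7, 83.6 and 101 CPM in CHIR99021, against 46.5, 47.3, 41.7 and 44.2 CPM in control. The lowest CHIR99021 library lay far above the highest control, and mean CPM was 2.01 times as high. The log2 difference was 0.99 ± 0.07 (SE, adjusted p = 6.5e-06), the largest rise of the 36 genes tested. Hk1 (chr10:62268855-62379908), the constitutive isoform that predominates in brain, had 54.7, 53.3, 49.4 and 53.7 CPM in CHIR99021, against 63.4, 65.5, 66.6 and 67.6 CPM in control. The groups did not overlap here either, and Hk1 fell (-0.31 ± 0.05, adjusted p = 0.00142). Since a longer transcript gives more reads, the isoforms were compared per kb of exon, and on this scale Hk2 made up 70.9 ± 1.53% of the hexokinase pair in CHIR99021 and 49.4 ± 1.89% in control (SD, n = 4 each). Divided by coding length instead, the share was 63.8 ± 1.71% in CHIR99021 and 41.3 ± 1.84% in control. In control the isoforms were thus near equal by exon length (Hk2 at 47.2 to 51.2%), and Hk1 was the larger by coding length. The summed level of both was 21.3 ± 1.58 CPM per kb of exon in CHIR99021 and 15.2 ± 0.334 in control.

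For phosphofructokinase, the committing step, 1 subunit was also called higher and another lower. Pfkp (chr13:6579768-6648777), the platelet-type subunit, had 31.5, 18.8, 39.2 and 33.8 CPM in CHIR99021, against 18.8, 14.7, 19.8 and 17.0 CPM in control. CHIR99021 replicate 2 was as low as the controls, and the other 3 treated libraries were above them all. Pfkp rose (0.74 ± 0.19, adjusted p = 0.0116), with a coefficient of variation of 28.1% between the treated libraries, the highest of the 36 genes in that group. The call was lost when genes of low expression were kept in the test (adjusted p = 0.0511) and within replicates 2 and 3 alone (0.64, adjusted p = 0.203). In each of the 4 replicate numbers the CHIR99021 library was above the control of the same number, and with the number as a block the adjusted p was 0.00043. Pfkm (chr15:98092589-98132451), the muscle-type subunit, was at 58.2, 59.7, 57.5 and 59.0 CPM in CHIR99021 and 73.4, 73.2, 76.0 and 84.8 CPM in control. Its groups did not overlap and it fell (-0.38 ± 0.06, adjusted p = 0.00067). Exons of Pfkm overlap those of Senp1, on the opposite strand and at 102 CPM, and exons of Pfkp overlap those of Pitrm1, at 127 CPM. The libraries keep the strand, but whether the counting used it is not given in the sources used here. The liver-type Pfkl, at 99.5 ± 6.87 CPM in CHIR99021 and 109 ± 5.36 CPM in control, did not pass (-0.13, adjusted p = 0.142). Pfkp remained the minor subunit per kb of exon, with 6.63 ± 1.89% of the set in CHIR99021 and 3.24 ± 0.470% in control. The summed level of the set, unlike that of the hexokinases, was lower in CHIR99021, at 34.7 ± 0.714 CPM per kb of exon against 40.6 ± 2.10 in control. By coding length it was 80.6 ± 2.56 in CHIR99021 and 86.8 ± 3.75 in control.

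Of the PFKFB enzymes, which make and remove fructose 2,6-bisphosphate, the activator of phosphofructokinase, only Pfkfb3 passed. Pfkfb3 (chr2:11471433-11554077), the isoform with the strongest kinase activity and itself a hypoxia target, had 43.3, 43.7, 41.9 and 45.2 CPM in CHIR99021, against 30.9, 31.1, 31.2 and 29.9 CPM in control. Its libraries were among the tightest of the set and far apart between groups, and it rose by 0.49 ± 0.06 (adjusted p = 0.00011). Pfkfb4 averaged 13.8 ± 0.620 CPM in CHIR99021 and 15.7 ± 0.489 CPM in control (-0.17, adjusted p = 0.107) without overlap between the groups. Pfkfb2, the isoform known from heart, averaged 12.9 ± 2.09 CPM in CHIR99021 and 13.1 ± 3.37 CPM in control (0.01, adjusted p = 0.984). The share of Pfkfb3 in the 3 isoforms, per kb of exon, was 55.5 ± 1.96% in CHIR99021 and 44.9 ± 2.40% in control.

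Of the enzymes between glucose 6-phosphate and the triose phosphates, other than phosphofructokinase, Aldoa and Gpi1 were called higher and Tpi1 and Aldoc did not pass. Aldoa, the broadly expressed aldolase, averaged 288 ± 8.91 CPM in CHIR99021 and 235 ± 13.3 CPM in control and rose by 0.30 ± 0.06 (adjusted p = 0.00221), while the brain aldolase Aldoc was at -0.10 (adjusted p = 0.608). Gpi1, which turns glucose 6-phosphate into fructose 6-phosphate, averaged 268 ± 7.26 CPM in CHIR99021 and 239 ± 9.07 CPM in control (0.16 ± 0.05, adjusted p = 0.0267). That call did not survive leaving out CHIR99021 replicate 1, 3 or 4 or Control replicate 1 or 3, with adjusted p of 0.0644, 0.0774, 0.0707, 0.0568 and 0.0626 in that order. Tpi1, which interconverts the triose phosphates, averaged 158 ± 7.73 CPM in CHIR99021 and 141 ± 8.50 CPM in control (0.16, adjusted p = 0.0612). Tpi1 passed after TMM scaling (0.22, adjusted p = 0.0172), in edgeR (adjusted p = 0.0189), and in the main fit without CHIR99021 replicate 4 (adjusted p = 0.0450) or Control replicate 4 (adjusted p = 0.0408).

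**Figure D2:**
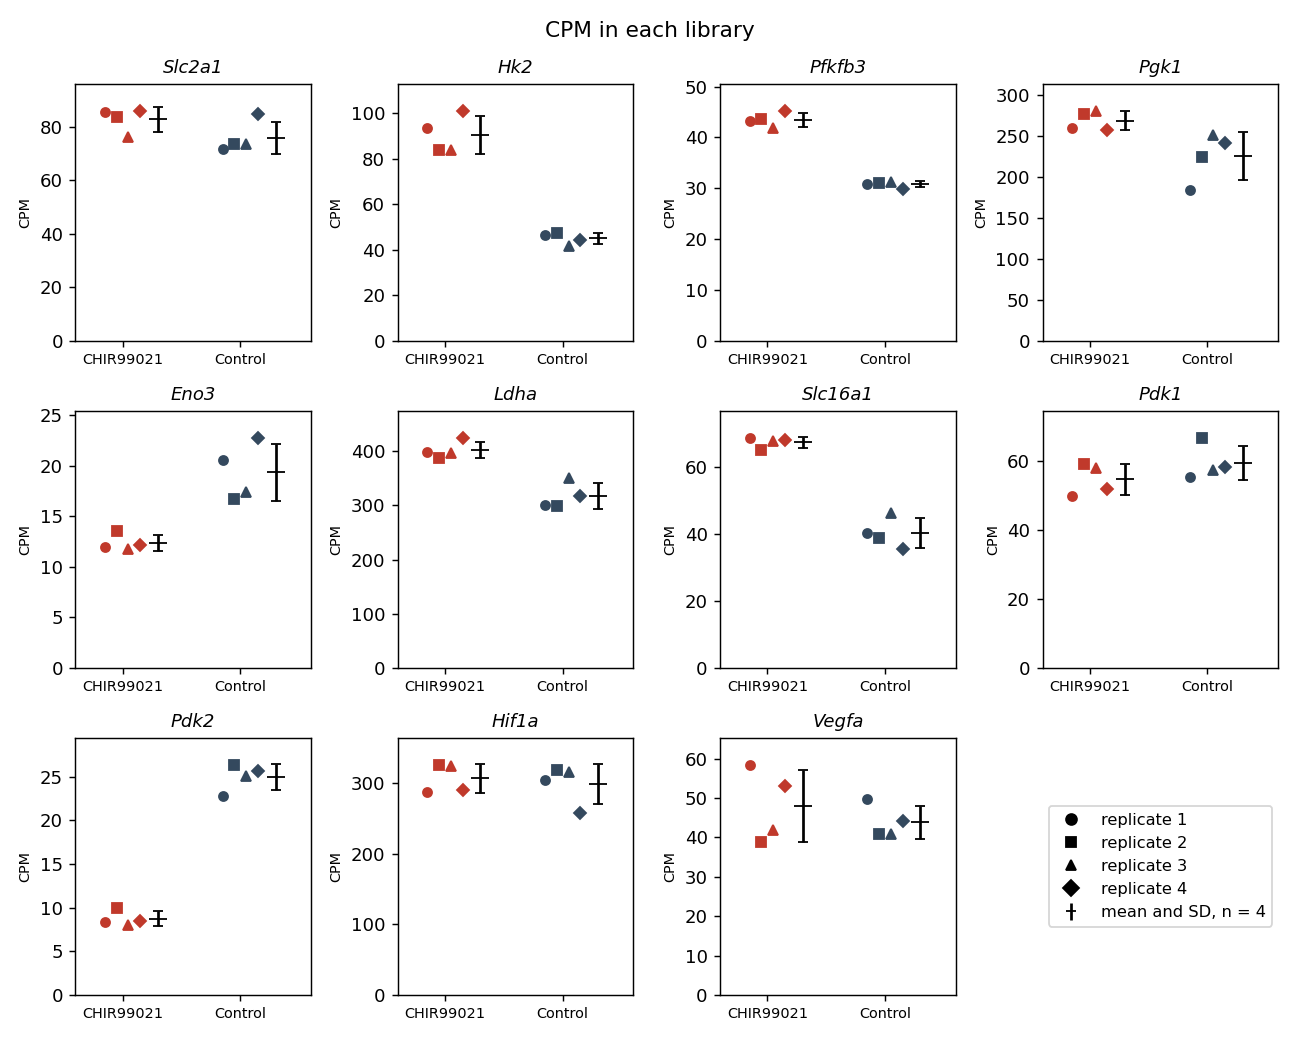
CPM in each library for 11 genes, with CHIR99021 on the left and control on the right of each panel, marker shape giving the replicate number, and the bar giving mean and SD (n = 4). Each axis starts at 0. Hk2, Pfkfb3, Ldha and Slc16a1 lie higher and Pdk2 and Eno3 lower in all CHIR99021 libraries, while Pdk1, Hif1a and Vegfa overlap between the groups.

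In the lower part of the pathway, which yields ATP and pyruvate, 3 of 7 genes were higher (42.9%, against 12.3% of all genes) and 1 was lower (14.3%, against 21.4%). Pkm (chr9:59656368-59679375), the pyruvate kinase of embryonic and most adult tissues and the gene with the highest listed CPM of the 38, had 978, 974, 932 and 956 CPM in CHIR99021, against 711, 744, 751 and 842 CPM in control. All treated libraries were above all controls, and Pkm rose by 0.34 ± 0.07 (adjusted p = 0.0027), though not within replicates 1 and 4 alone (0.32, adjusted p = 0.0568). The table holds 1 value for the gene, so its M1 and M2 splice forms were not separated. Pgam1, phosphoglycerate mutase, averaged 110 ± 6.55 CPM in CHIR99021 and 88.1 ± 5.65 CPM in control (0.32 ± 0.06, adjusted p = 0.00341).

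Pgk1, the X-linked phosphoglycerate kinase that is often read as a hypoxia target, had 259, 276, 280 and 257 CPM in CHIR99021, against 184, 224, 251 and 241 CPM in control. The lowest treated library was just above the highest control, and Control replicate 1 stood low. Pgk1 passed narrowly (0.26 ± 0.09, adjusted p = 0.0417). Its adjusted p was 0.0615, 0.0824, 0.103 and 0.0595 without CHIR99021 replicates 1, 2, 3 and 4, and 0.0637 and 0.0820 without Control replicates 1 and 2. With sex as a covariate it was 0.0525.

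The enolases again differed by isoform. Eno3 (chr11:70657202-70662513), the muscle-type β-enolase, had 11.9, 13.5, 11.8 and 12.1 CPM in CHIR99021, against 20.5, 16.7, 17.4 and 22.7 CPM in control. All treated libraries were below all controls and Eno3 fell (-0.60 ± 0.10, adjusted p = 0.00145), although within replicates 2 and 3 alone it did not pass (-0.41, adjusted p = 0.106). Of the skeletal muscle markers, 5 of 7 were under the expression filter, the 2 tested did not pass, and all 7 together summed to 2.11 to 5.79 CPM in CHIR99021 and 2.03 to 3.26 CPM in control, with Myod1 and Ckm near 0. Eno1, the ubiquitous α-enolase, averaged 249 ± 19.9 CPM in CHIR99021 and 219 ± 17.9 CPM in control, which passed after TMM scaling (0.25, adjusted p = 0.0254) and in edgeR (adjusted p = 0.0224) but not in the main fit (0.18, adjusted p = 0.0813). The neuronal Eno2 averaged 6.21 ± 1.27 CPM in CHIR99021 and 7.24 ± 2.52 CPM in control (-0.16, adjusted p = 0.601). Eno3 made up 13.0 ± 1.39% of enolase per kb of exon in CHIR99021 and 20.8 ± 1.48% in control, or 4.64% in CHIR99021 and 7.85% in control by coding length.

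Gapdh, widely used as a reference gene, shares its sequence with many other rows of the table. It was listed at only 15.0, 11.8, 12.8 and 15.9 CPM in CHIR99021, against 14.8, 8.78, 4.61 and 9.27 CPM in control, and it varied more between controls than any other member (coefficient of variation of 44.8%). Reads of the gene can fall on 72 other annotated genes that share at least 150 bases with it at 95% identity or more, 71 of them pseudogenes, and these rows together held 234, 219, 256 and 225 CPM in CHIR99021, against 196, 492, 244 and 191 CPM in control. Among them, Gm13394 had 170 to 201 CPM in CHIR99021 and 148 to 201 CPM in control, and Gm2606 was at 289 CPM in Control replicate 2 and at most 1.06 CPM in every other library. The sum of Gapdh and these rows was 247 ± 16.2 CPM in CHIR99021 and 290 ± 142 CPM in control. The Gapdh row did not pass (0.60 ± 0.25, adjusted p = 0.0859), but it did without Control replicate 1 (0.84, adjusted p = 0.0121) and with the replicate number as a block (adjusted p = 0.0180). Shared sequence of the same kind was found for 7 more members (Gpi1, Pgk1, Pgam1, Eno1, Ldha, Ldhb and Bnip3), whose values are uncertain to that extent.

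At the end of the pathway, of 4 genes for lactate production and transport, Ldha and Slc16a1 were higher, Ldhb was called lower at the threshold and Slc16a3 did not pass. That is 50.0% higher and 25.0% lower, against 12.3% and 21.4% of all genes. Ldha (chr7:46841475-46855627), the lactate dehydrogenase subunit that favours making lactate from pyruvate, had 400, 388, 397 and 424 CPM in CHIR99021, against 301, 299, 350 and 318 CPM in control. The groups did not overlap and Ldha rose by 0.34 ± 0.06 (adjusted p = 0.00177). Within replicates 2 and 3 alone the difference was 0.28 (adjusted p = 0.0867). Slc16a1 (chr3:104638668-104658462), which encodes the proton-linked lactate and pyruvate transporter MCT1, had 68.5, 64.9, 67.6 and 68.1 CPM in CHIR99021, against 40.2, 38.8, 46.3 and 35.5 CPM in control. The treated libraries were within a few CPM of one another and all well above the controls, mean CPM was 1.67 times as high, and the log2 difference was 0.74 ± 0.08 (adjusted p = 5.6e-05). Slc16a3, the exporter MCT4 of highly glycolytic cells and a hypoxia target, was low in both groups, at 4.20 ± 0.274 CPM in CHIR99021 and 3.72 ± 0.462 CPM in control (0.14, adjusted p = 0.368).

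Ldhb, the subunit that favours lactate oxidation, averaged 157 ± 10.2 CPM in CHIR99021 and 181 ± 15.1 CPM in control, with overlap, and was called lower at the threshold (-0.20 ± 0.07, adjusted p = 0.0481). The call was lost after TMM scaling (-0.14, adjusted p = 0.166), in edgeR and DESeq2, with sex as a covariate, and without CHIR99021 replicate 1, 3 or 4 (adjusted p of 0.133, 0.0917 and 0.0865) or Control replicate 2, 3 or 4 (0.0568, 0.107 and 0.119). Of the lactate dehydrogenase pair per kb of exon, Ldha held 54.9 ± 2.07% in CHIR99021 and 45.5 ± 1.24% in control. By coding length the shares of Ldha were 70.4% in CHIR99021 and 61.9% in control. On either length the CHIR99021 libraries all had a larger share of Ldha than the controls.

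**Figure D3:**
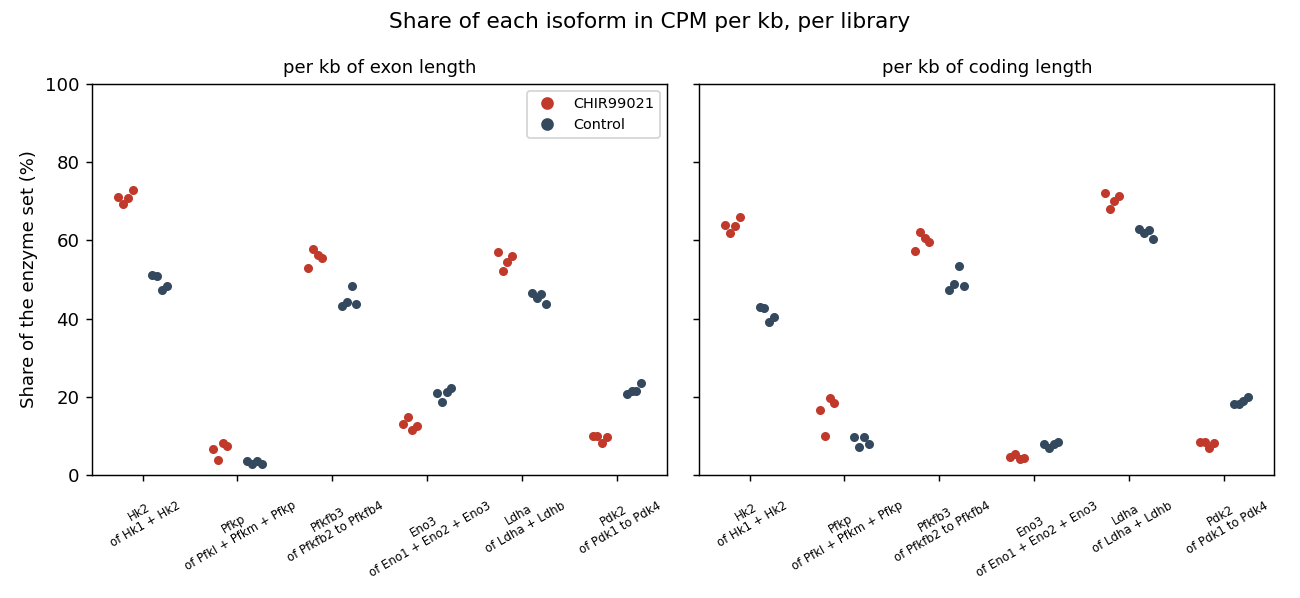
Share of 1 isoform in the summed level of its enzyme set, in percent of CPM per kb, in each CHIR99021 library (red, left of each pair) and each control library (dark, right), with levels divided by exon length in the left panel and by coding length in the right panel. The libraries of the 2 groups do not overlap for any of the 6 isoforms shown on either length, with Hk2 showing the widest gap (70.9% in CHIR99021 and 49.4% in control by exon length). The 6 were picked from a larger number of sets and isoforms, and others overlapped. Among these by exon length were Egln1 within its pair (94.3 to 96.8% in CHIR99021 and 95.2 to 96.6% in control) and Pfkl within phosphofructokinase.

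The largest change of all 36 tested genes was in Pdk2 (chr11:95026258-95041354), a kinase that inactivates pyruvate dehydrogenase and so keeps pyruvate out of the citric acid cycle. Pdk2 had 8.35, 9.97, 8.04 and 8.51 CPM in CHIR99021, against 22.8, 26.3, 25.1 and 25.6 CPM in control. Every treated library was far below every control, mean CPM was 0.35 times that of control, and the log2 difference was -1.42 ± 0.09 (adjusted p = 2.6e-06). Pdk4, the kinase induced by fasting, was at 0.623, 0.570, 0.405 and 0.165 CPM in CHIR99021, against 1.55, 1.93, 1.07 and 1.47 CPM in control, below the expression filter. Its groups did not overlap either, and it was lower in the tests that kept it (-0.80 ± 0.14 on the log2(CPM + 1) scale, adjusted p = 0.00714 in limma with no filter, and -1.70, adjusted p = 0.00653 in edgeR). Pdk1, the kinase most often used as a HIF1A target, was at 49.9, 59.2, 58.0 and 51.9 CPM in CHIR99021 and 55.5, 66.6, 57.5 and 58.3 CPM in control. The Pdk1 groups overlapped and no difference passed (-0.12 ± 0.08, adjusted p = 0.266), nor did one for Pdk3 (-0.08, adjusted p = 0.449). Summed per kb of exon, the 4 kinases were at 29.0 ± 2.62 CPM per kb in CHIR99021 and 36.1 ± 1.90 in control, and the share of Pdk2 was 9.54 ± 0.857% in CHIR99021 and 21.8 ± 1.11% in control.

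Pdha1, the X-linked catalytic subunit of pyruvate dehydrogenase on which these kinases act, averaged 149 ± 4.25 CPM in CHIR99021 and 124 ± 5.85 CPM in control, without overlap. It rose by 0.26 ± 0.05 (adjusted p = 0.00341), and by 0.27 (adjusted p = 0.0744) within replicates 2 and 3 alone. Among 12 other genes of pyruvate entry and the pyruvate dehydrogenase complex, 2 were higher (16.7%, against 12.3% of all genes) and 4 lower (33.3%, against 21.4%), with a median of -0.06. Pdp2, a phosphatase that reverses the action of the kinases, averaged 40.8 ± 0.796 CPM in CHIR99021 and 27.3 ± 1.34 CPM in control (0.56, adjusted p = 7.3e-05). Its relative Pdp1 averaged 10.8 ± 0.381 CPM in CHIR99021 and 17.9 ± 1.82 CPM in control (-0.68, adjusted p = 0.00024), and Pdpr, which regulates the phosphatase, 54.1 ± 2.06 CPM in CHIR99021 and 67.9 ± 0.983 CPM in control (-0.32, adjusted p = 0.0008). The phosphatases, like the hexokinases, moved in opposite directions.

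Of the 7 tested genes of oxygen sensing and the hypoxia response, 1 was higher and 1 lower, neither of which held under every alternative. That is 28.6% called, against 33.7% of all genes. Hif1a (chr12:73901375-73947530), the oxygen-regulated subunit of HIF1, had 288, 325, 324 and 290 CPM in CHIR99021, against 305, 319, 316 and 258 CPM in control. The groups overlapped and the difference was 0.04 with a 95% confidence interval of -0.13 to 0.21 (adjusted p = 0.736). HIF1A is controlled mainly through the stability of the protein, which was not measured. Of the prolyl hydroxylases that mark HIF1A for destruction, Egln1 averaged 80.2 ± 8.07 CPM in CHIR99021 and 73.6 ± 7.14 CPM in control (0.12, adjusted p = 0.299), and Egln3, itself a HIF target, 2.86 ± 0.474 CPM in CHIR99021 and 2.32 ± 0.365 CPM in control (0.21, adjusted p = 0.261).

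Vegfa (chr17:46016993-46032369), the growth factor for blood vessels, had 58.3, 38.9, 41.9 and 53.1 CPM in CHIR99021, against 49.7, 40.9, 40.8 and 44.2 CPM in control. In both groups replicates 1 and 4 were higher than replicates 2 and 3, and between groups no difference passed (0.11, 95% confidence interval of -0.16 to 0.38, adjusted p = 0.513). Bnip3, a mitophagy receptor, averaged 27.2 ± 2.93 CPM in CHIR99021 and 32.8 ± 3.78 CPM in control (-0.26, adjusted p = 0.0614). It passed with the replicate number as a block (adjusted p = 0.00828) and without CHIR99021 replicate 2 (-0.33, adjusted p = 0.0238). Ankrd37, a short ankyrin-repeat gene that responds to HIF1A, lay below the filter at 0.349 to 0.636 CPM in CHIR99021 and 0.677 to 1.06 CPM in control, without overlap, and did not pass in edgeR (-0.68, adjusted p = 0.193). Its exons overlap those of Ufsp2 on the opposite strand, at 25.4 CPM.

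The collagen prolyl 4-hydroxylases P4ha1 and P4ha2, catalytic subunits that stabilise the collagen helix, went in opposite directions. P4ha1 averaged 57.0 ± 3.95 CPM in CHIR99021 and 48.5 ± 2.27 CPM in control (0.23 ± 0.07, adjusted p = 0.0214), with an adjusted p of 0.0655 and 0.0693 without CHIR99021 replicates 1 and 4 and 0.0548 without Control replicate 4, and a difference of 0.10 (adjusted p = 0.506) within replicates 2 and 3 alone. P4ha2 averaged 17.9 ± 1.99 CPM in CHIR99021 and 22.0 ± 2.00 CPM in control (-0.29 ± 0.10, adjusted p = 0.0425). The P4ha2 call was lost after TMM scaling (-0.23, adjusted p = 0.106), in edgeR and DESeq2, and without CHIR99021 replicates 2, 3 or 4 (adjusted p of 0.0984, 0.0737 and 0.0765) or Control replicates 1, 3 or 4 (0.0778, 0.0967 and 0.0944).

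Of 32 tested targets of hypoxia outside the 38, 6 were higher (18.8%, against 12.3% of all genes) and 10 lower (31.2%, against 21.4%), with a median of -0.08. The 3 with the smallest p were all lower. Bnip3l, a mitophagy receptor and relative of Bnip3, averaged 77.4 ± 7.58 CPM in CHIR99021 and 162 ± 9.65 CPM in control (-1.06, adjusted p = 4.6e-06). Mxi1, a repressor that competes with MYC for its partner MAX, averaged 40.3 ± 1.38 CPM in CHIR99021 and 69.6 ± 3.76 CPM in control (-0.77, adjusted p = 7.2e-06), and Zfp395 37.7 ± 2.98 CPM in CHIR99021 and 60.6 ± 3.19 CPM in control (-0.67, adjusted p = 5.8e-05). Of 13 other genes of the HIF subunits and oxygen sensing, none was higher and 5 were lower by limma (38.5%, against 21.4% of all genes), or 3 after TMM scaling and in edgeR. These included Epas1, which encodes HIF2A, at 16.8 ± 1.20 CPM in CHIR99021 and 29.5 ± 1.42 CPM in control (-0.78, adjusted p = 3.7e-05), Cited2, a competitor of HIF1A for its coactivators (-0.54, adjusted p = 0.0002), and Hif3a (-0.49, adjusted p = 0.0089, and 0.0688 within replicates 2 and 3 alone). Of 6 endothelial markers 1 was lower, and they summed to 77.7 to 94.5 CPM in CHIR99021 and 86.3 to 120 CPM in control, so the groups overlapped.

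**Figure D4:**
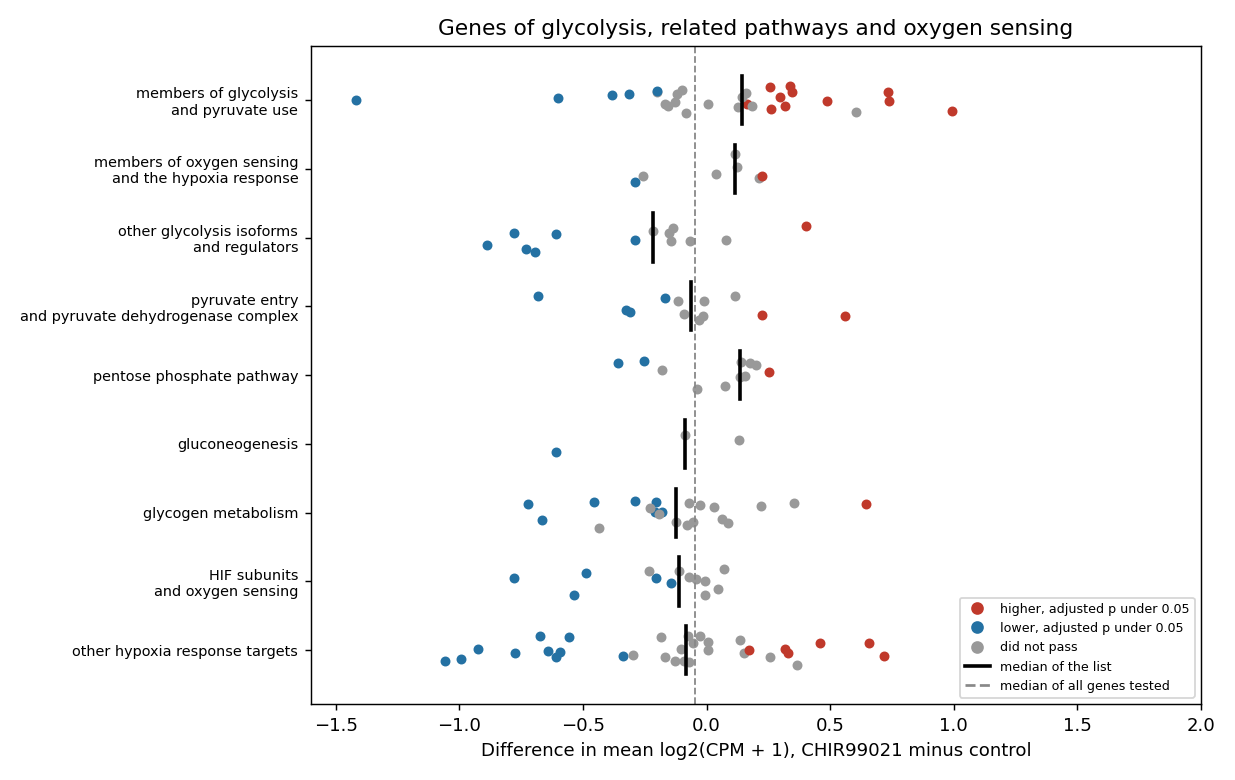
Difference in mean log2(CPM + 1), CHIR99021 minus control, of each tested gene in the 38-gene set (upper 2 rows, labelled members) and in 7 related lists, with the list median as a black bar and the median of all tested genes (-0.05) as a dashed line. The glycolysis and pyruvate members spread the widest, between -1.42 and 0.99, with a median of 0.14. Genes of HIF subunits and oxygen sensing that passed (blue) were all lower.

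Routes that branch from glycolysis were followed with lists of other genes. Of 13 further tested glycolysis isoforms and regulators, 1 was higher (7.69%, against 12.3% of all genes) and 6 lower (46.2%, against 21.4%), with a median of -0.22. Slc2a4, the insulin-responsive transporter GLUT4, averaged 13.3 ± 0.351 CPM in CHIR99021 and 22.2 ± 0.200 CPM in control (-0.69, adjusted p = 3.7e-05), and the intracellular transporter Slc2a8 averaged 11.1 ± 0.751 CPM in CHIR99021 and 21.4 ± 2.01 CPM in control (-0.89, adjusted p = 5.0e-05). Txnip, a glucose-responsive inhibitor of glucose uptake, averaged 101 ± 9.13 CPM in CHIR99021 and 154 ± 8.94 CPM in control (-0.61, adjusted p = 0.00012). The pentose phosphate pathway, which makes NADPH and ribose, had 1 gene higher (9.09%) and 2 lower (18.2%) of 11 (median 0.14), with the transketolase Tkt higher (0.25, adjusted p = 0.0083) and the entry enzyme G6pdx (-0.25, adjusted p = 0.0205) and Shpk (-0.36, adjusted p = 0.0195) lower. The G6pdx call was lost after TMM scaling (adjusted p = 0.0685), in edgeR (0.0860) and without Control replicate 2 (0.0599), and that of Shpk in edgeR (0.0631) and without CHIR99021 replicate 4 (0.0570) or Control replicate 1 (0.0514). Tkt did not pass within replicates 1 and 4 alone (adjusted p = 0.0853) or 2 and 3 alone (0.0726).

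Glycogen metabolism is the pathway for which GSK3, the target of CHIR99021, is named. Of 21 tested genes, 1 was higher (4.76%) and 7 lower (33.3%, against 21.4% of all genes), with a median of -0.12, and after TMM scaling 2 were higher and 3 lower. Pgm2l1, which makes glucose 1,6-bisphosphate, averaged 260 ± 7.96 CPM in CHIR99021 and 166 ± 9.74 CPM in control (0.64, adjusted p = 1.5e-05). The glycogen phosphorylase Pygl averaged 3.86 ± 0.836 CPM in CHIR99021 and 6.99 ± 1.14 CPM in control (-0.72, adjusted p = 0.0041), and Ppp1r3c, a scaffold that brings phosphatase to glycogen, 1.97 ± 0.337 CPM in CHIR99021 and 3.72 ± 0.688 CPM in control (-0.66, adjusted p = 0.0047). Within replicates 2 and 3 alone neither Pygl (adjusted p = 0.212) nor Ppp1r3c (0.0587) passed. Of the 3 tested gluconeogenesis genes only Pck2, the mitochondrial enzyme that makes phosphoenolpyruvate, passed, at 23.9 ± 1.36 CPM in CHIR99021 and 37.0 ± 4.42 CPM in control (-0.61, adjusted p = 0.00053).

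Per kb of exon, Pkm had the highest listed level of the 38 genes in both groups, at 192 ± 4.25 CPM per kb in CHIR99021 and 152 ± 11.3 in control. Gapdh, whose reads can fall on its near-identical copies, cannot be placed in this order. The next 4 places were held by Ldha (122 ± 4.65), Pgk1 (119 ± 5.15), Ldhb (99.8 ± 6.51) and Aldoa (99.0 ± 3.06) in CHIR99021, and by Ldhb (115 ± 9.64), Pgk1 (100 ± 13.2), Ldha (95.8 ± 7.11) and Aldoa (80.7 ± 4.57) in control. In CHIR99021 Ldha and Pgk1, and Ldhb and Aldoa, differed by less than their SDs, as did Pgk1 and Ldha in control. Hk2 held rank 17 in CHIR99021 and rank 25 in control, Slc16a1 rank 16 in CHIR99021 and rank 21 in control, and Pdk2 rank 30 in CHIR99021 and rank 22 in control. The order depended on the length used. By coding length Pkm stayed at rank 1 and Ldha was at rank 2 in both groups, with Ldhb at rank 8 in CHIR99021 and rank 4 in control. Hk2 was then at rank 21 in CHIR99021 and rank 26 in control. Pdk4 and Ankrd37 had the lowest levels in both groups.

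The replicates of the 36 tested genes were close, with a median coefficient of variation of 6.78% in CHIR99021 and 8.23% in control. Since each group held 2 female and 2 male libraries, sex was tested with treatment as a covariate. No member passed for male against female in limma or in edgeR, 2 of 36 had an unadjusted p under 0.05 in limma (609 of all 14264 genes), and 0.0981% of all genes passed. The smallest p among the members was that of Aldoc, higher in male libraries by 0.36 (unadjusted p = 0.00138, adjusted p = 0.537). The response to CHIR99021 was then compared between the sexes as an interaction. No member passed in limma or edgeR, 0 of 36 had an unadjusted p under 0.05 (181 of all genes), and 0 of all genes passed in limma. With 2 libraries per sex and group, the median 95% confidence interval of a member reached 0.37 on either side of its estimate on the log2 scale.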

How the data were processed

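RNA-seq of 8 libraries was used. The authors prepared strand-specific libraries from poly(A) RNA, mapped reads to GRCm38 with HISAT2 and deposited 1 CPM value per gene and library. The counting tool and its strand setting are not given in the sources used here. The deposited table also holds the authors' own comparisons as fold changes, p-values and false discovery rates, which were not used.

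Deposited CPM were whole multiples of 1 read for 100% of values within 0.001 read, so reads could be recovered for edgeR and DESeq2, but CPM remained the main unit. The main test was limma 3.58.1 with a trend (R 4.3.3) on log2(CPM + 1), which understates changes of genes with low values, on genes with a mean CPM of 1 or more. Adjusted p-values are from this limma fit over all tested genes unless edgeR 4.0.16 (quasi-likelihood, 4683 of 18116 genes called) or DESeq2 1.42.0 is named. SD is over the 4 libraries of a group. SE is that of the difference in limma, with the variance of each gene drawn towards a trend over all tested genes. The series design calls the replicates biological without naming the animals behind each library, so p-values measure the spread between these libraries.

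The 38 genes, the related lists and the markers were chosen with earlier results of these data known. CPM per library are given for members that passed without overlap at a difference over 0.5 in size, for 8 common readouts (Slc2a1, Hk2, Pfkfb3, Pgk1, Ldha, Pdk1, Hif1a and Vegfa), and, chosen after their values were seen, for Hk1, Pfkp, Pfkm, Pkm, Gapdh and Pdk4. From each related list the 3 called genes with the smallest p are named. Libraries of the same replicate number deviated together from their group means (r of 0.51, 0.25, 0.35 and 0.34 for numbers 1 to 4, against at most 0.17 with another number), so a fit with the number as a block was an alternative. The others were pseudocounts, filters, scalings, count tests, sex as a covariate, replicates 1 and 4 or 2 and 3 alone, and leaving out each library. Gene positions and lengths are from GENCODE M21 (GRCm38), which holds 99.3% of the gene identifiers, and near-identical copies were sought with BLAST 2.17.0. Scripts were tested on simulated data.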

Additional observations from a re-analysis of the deposited data

Results flagged for a closer look

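In 2 of 76 groups of 4 libraries (38 genes in 2 treatments) the highest or lowest library stood apart by Dixon's criterion, where chance flags about 1 in 20 groups. Slc2a1 was at 84.8 CPM in Control replicate 4, against 71.5 to 73.5 CPM in the other controls. Slc2a3 was at 13.1 CPM in Control replicate 3, against 10.3 to 10.6 CPM in the others.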

How the results depend on the processing

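Hk2, Hk1, Pfkm, Aldoa, Pfkfb3, Pgam1, Slc16a1 and Pdk2 kept their direction and stayed past the threshold under every alternative run. Within replicates 2 and 3 alone (2 libraries per group), 1656 of all genes, 9 members (6 higher, 3 lower) and 22 genes of the related lists were called, against 4805, 18 (12 and 6) and 46 in the main fit. Leaving out each library in turn gave 15 to 18 members. With the replicate number as a block, 20 members (13 higher, 7 lower) and 5908 of all genes were called, adding Gapdh and Bnip3 among the members, and for the sex interaction 0 members were called. It changed no other call of a member.

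The difference of 4 genes that did not pass changed sign. Pfkfb2 (0.01) was at -0.042 in replicates 1 and 4 alone and between -0.17 and 0.13 with 1 library left out. Hif1a (0.04) was between -0.031 and 0.071 with 1 library left out, the lowest without Control replicate 4. In replicates 2 and 3 alone Eno2 was at 0.053 (-0.16 in the main fit) and Vegfa at -0.016 (0.11). The share of Hk2 was 63.8% by coding length and 70.9% by exon length.

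Near-identical copies limit Gapdh, and overlapping genes on the opposite strand touch 13 of the 38 genes. Each group had only 4 libraries, and protein, enzyme activity, glucose use and lactate were not measured.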
